A study of Mus musculus with 2031 samples.

Results

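Genes of the mitochondrial genome were taken as all gene symbols that start with mt- among the 49671 genes counted in each cell, which gave 37 genes: 13 for proteins, 2 for ribosomal RNAs and 22 for transfer RNAs. Mouse mitochondria hold many copies of a small circular DNA that is transcribed from both strands into long precursors. Transfer RNAs lie between most of the other genes, and their removal frees the messenger and ribosomal RNAs. Most of these then receive short poly(A) tails inside the organelle. The proteins are core subunits of respiratory complexes I, III and IV and of the ATP synthase, complex V, and their partner subunits are encoded in the nucleus. Astrocytes use these complexes next to a high rate of glycolysis.

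Single cells of adult mouse brain were sequenced with Smart-seq2, a full-length method that primes on poly(A) tails and, here, used no molecular identifiers, so that reads include PCR copies. C57BL/6J mice at postnatal day 56 gave 4 cell suspensions, sorted for surface ATP1B2 (ACSA-2 antibody) and against the oligodendrocyte antigen O1 and the death stain 7-AAD. Cortex 1 and cortex 2 came from 1 animal each, which were littermates, whereas hippocampus 1 and hippocampus 2 were each pooled from 4 littermates, with a different litter for each. Brain area therefore cannot be told apart from litter and pooling, and the suspension is the replicate. Of 2031 cells with labels, 2030 were analysed, and the study's cell list, in the shortened copy used here, placed 1982 of them in 10 types. Missing from it were 33 cells, each from plate 95 of cortex 1. Typed were 1781 astrocytes in subtypes AST1 to AST5, mural cells (pericytes and smooth muscle of vessel walls; 27, 12, 48 and 47 in cortex 1, cortex 2, hippocampus 1 and hippocampus 2), 30 endothelial, 17 neuronal, 11 microglial and 9 oligodendrocytic cells. The study drew these types by clustering the same counts, so that differences between types are not independent of how the cells were sorted into them. The study treated the types other than astrocytes as contaminating cells. The astrocytic marker list had a median of 1668 to 4577 counts per 1000000 gene counts (CPM) in the 5 astrocyte subtypes against 0.337 to 132.6 in the other types. Summed over its genes, the list had 33072 to 50609 CPM in astrocyte subtypes and 502.7 to 3233 in the other types, the most in mural cells. The part of astrocyte RNA in those types was not tested. Gene counts per cell ran from 600758 to 3238215, and those on mitochondrial genes from 5210 to 278617.

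Sequence shared with the nuclear genome bears on which of the 37 genes could be counted, since the authors kept only reads with a single place in the genome. Stretches of 75 bases, the read length, were taken at every position of each mitochondrial gene and searched for, letter for letter, in the transcripts of all other annotated genes of the same build (GRCm38). Annotated nuclear pseudogenes held 99.9% of those of mt-Co3, 99.5% of mt-Co2 and mt-Atp6, 98.7% of mt-Nd4l, 97.8% of mt-Nd3, 61.5% of mt-Nd4, 39.8% of mt-Co1, 5.71% of mt-Nd2 and 1.66% of mt-Nd5. No such stretch was found for mt-Nd1, mt-Nd6, mt-Cytb, mt-Atp8, mt-Rnr1 or mt-Rnr2. Most of the shared sequence lay in 7 pseudogenes in a row on the minus strand of chromosome 1, chr1:24611535-24616197, which keep the order of the mitochondrial genes from mt-Co1 to mt-Nd4. Gm28439, Gm28437, Gm10925 and Gm28661 were identical to mt-Nd4, mt-Co3, mt-Atp6 and mt-Co2 over their whole lengths of 876, 783, 678 and 681 bases, and Gm10222 to mt-Nd4l over its whole length. The first 90 bases of mt-Atp6 (chrM:7927-8016, plus strand) and of its copy Gm10925 (chr1:24614562-24614651, minus strand) are shown to make the identity visible.

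mt-Atp6: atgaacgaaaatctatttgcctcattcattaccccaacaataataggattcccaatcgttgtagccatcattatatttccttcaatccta
Gm10925: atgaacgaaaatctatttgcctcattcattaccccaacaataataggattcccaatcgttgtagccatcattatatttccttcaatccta

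Gm28438 carried 1 substitution against mt-Nd3 over its whole length, T3C, in the start codon (positions counted from the first base of the mitochondrial gene, whose base is given first). It stands in capitals in the first 90 bases of each, mt-Nd3 at chrM:9459-9548 on the plus strand and Gm28438 at chr1:24613030-24613119 on the minus strand.

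mt-Nd3: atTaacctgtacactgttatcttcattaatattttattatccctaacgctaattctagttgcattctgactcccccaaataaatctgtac
Gm28438: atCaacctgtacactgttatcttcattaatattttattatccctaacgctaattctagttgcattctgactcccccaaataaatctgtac

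Gm29216 covered bases 1054 to 1545 of mt-Co1 with 6 substitutions, T1056A, C1057T, A1059G, A1060G, C1062A and A1066T, all at its start, and no difference after base 1066. The 90 bases from position 1054 of mt-Co1 (chrM:6381-6470, plus strand) and those of the copy (chr1:24616108-24616197, minus strand) are printed with the differing bases in capitals. A 75-base stretch of mt-Co1 that begins after them occurs in both places.

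mt-Co1: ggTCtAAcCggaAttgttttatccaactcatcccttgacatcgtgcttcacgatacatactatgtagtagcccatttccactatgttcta
Gm29216: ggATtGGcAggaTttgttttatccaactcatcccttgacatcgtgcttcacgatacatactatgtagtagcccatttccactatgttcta

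In mt-Nd4 the copy ends within the gene, and the 120 bases around its end (chrM:10983-11102, plus strand) are shown with the part that the copy holds in capitals. Stretches of 75 bases that reach past this end were found in mt-Nd4 alone.

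mt-Nd4: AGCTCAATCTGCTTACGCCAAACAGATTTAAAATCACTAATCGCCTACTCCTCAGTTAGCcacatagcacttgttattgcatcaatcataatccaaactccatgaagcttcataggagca

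The counts followed this division (plot of level against shared sequence). The 5 genes with at least 97.8% of their stretches in pseudogenes, mt-Co2, mt-Co3, mt-Atp6, mt-Nd3 and mt-Nd4l, held 75818 counts over all cells, 0.0645% of the 117517481 counts on mitochondrial genes, whereas 7 of the other protein genes, all but mt-Atp8, held 82128691. The low level of the 5 genes describes reads that mapped once, and not the RNA of those genes, which these counts do not measure. Counts on the copies were also few. The 12 annotated nuclear genes that share a 75-base stretch held 100640 counts in all, 0.0856% of those on mitochondrial genes, led by Gm13340 with 31708, Gm10925 with 29061, Gm29216 with 16260, Gm28437 with 13165 and Gm28661 with 4842. A read on Gm10925 and a read on mt-Atp6 cannot be told apart inside the shared stretch, and both genes are uncertain.

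**Figure D1:**
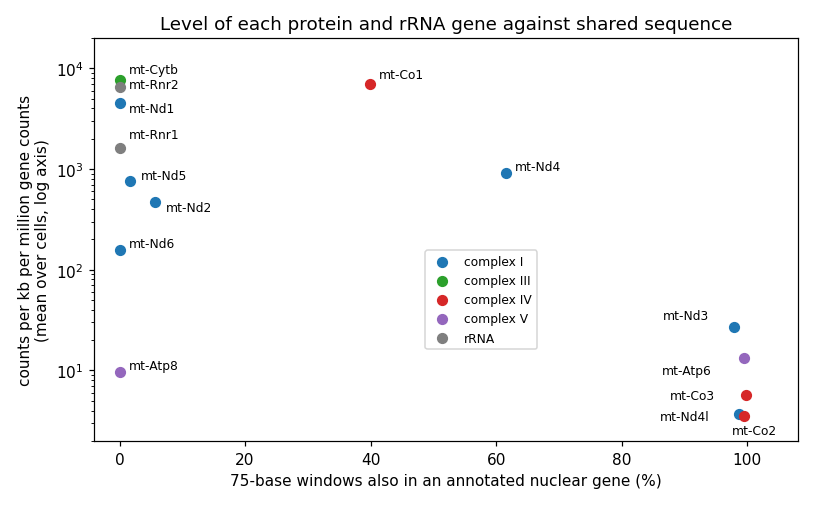
Level of the 13 protein and 2 rRNA genes, as counts per kilobase per 1000000 gene counts averaged over 2030 cells (vertical, log axis), against the percent of 75-base stretches that also occur in an annotated nuclear gene (horizontal); each point is 1 gene and colours mark the complex. The 5 genes at the right, from 97.8% to 99.9%, all lie below 30 on the vertical axis, and of the other genes only mt-Atp8 does.

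Per length, the levels of the protein and rRNA genes with sequence of their own differed widely. As counts per kilobase per 1000000 gene counts, averaged over cells, mt-Cytb (the membrane subunit of complex III) stood at 7563, mt-Co1 (the catalytic subunit of complex IV) at 7010 and mt-Rnr2 (the large ribosomal RNA) at 6535. Next came mt-Nd1 at 4531 and mt-Rnr1, the small ribosomal RNA, at 1605, then the complex I subunits mt-Nd4 at 919, mt-Nd5 at 768, mt-Nd2 at 472 and mt-Nd6 at 155.6. Scaled to the read positions that are its own, per 1000 such positions, mt-Co1 moved to the top with 12238, above mt-Cytb with 8086. On this scale mt-Nd4 rose to 2523, above mt-Rnr1 with 1740. Own positions were counted for single reads, whereas the reads were paired and a pair can be placed by either mate. The scaled values of mt-Co1 and mt-Nd4, which share much sequence with copies, may therefore be too high. Their places in this order are uncertain. mt-Atp8, a small subunit of complex V, was low at 9.75 although no stretch of it was found in an annotated transcript. It lies between mt-Co2 and mt-Atp6, and its place in the row on chromosome 1 falls between Gm28661 and Gm10925, in sequence outside annotated transcripts that was not searched here. The protein genes took 69.96% of the mitochondrial counts, the rRNA genes 30.01% and the tRNA genes 0.0306%. The libraries were primed on poly(A) tails, and how well each RNA was captured that way was not measured. These levels and shares therefore describe reads and not amounts of RNA.

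mt-Co1, mt-Rnr2 and mt-Cytb had counts in 2030 of 2030 cells, mt-Rnr1 in 2029 and mt-Nd1 in 2025. mt-Nd6, the only protein gene on the minus strand, had counts in 1735 cells with a median of 72.5 counts. It overlaps mt-Nd5 by 14 bases on the opposite strand, and since strand in counting is not given in the sources used here, reads of the one can stand in the other. Within each suspension the share of mt-Nd6 in single astrocytes went more closely with that of mt-Nd5 (Spearman's rho 0.430 to 0.514 over 393 to 499 cells) than with that of mt-Co1 (0.237 to 0.275). mt-Rnr1 and mt-Rnr2, neighbours on 1 precursor, had the highest rho of the 36 pairs of 9 abundant genes, 0.672 to 0.821, and mt-Co1 with mt-Cytb gave 0.520 to 0.672. These values describe cells that share libraries and a common total.

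Protein genes of this genome often lack a whole stop codon, which the poly(A) tail then completes. In the annotation 3 of the 13 protein genes, mt-Cytb, mt-Co3 and mt-Nd4, end 1 base after their last whole codon. The last 90 bases of mt-Cytb, the member with the most counts per kilobase, lie at chrM:15199-15288 on the plus strand, with that base in capitals.

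mt-Cytb: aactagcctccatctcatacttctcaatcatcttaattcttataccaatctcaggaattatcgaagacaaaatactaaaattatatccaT

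Counts on transfer RNA genes were few and unevenly spread. Of 22 tRNA genes, 19 had a count in some cell. mt-Td, mt-Tk and mt-Th had none in 2030 cells, which allows up to 3 counts in all by counting error. They are too short for a 75-base stretch, so sequence shared with the nuclear genome was not assessed for them. mt-Td lies between mt-Co1 and mt-Co2, and mt-Tk between mt-Co2 and mt-Atp8. Their places in the row on chromosome 1 fall outside annotated transcripts and were not searched. mt-Tq (glutamine) held 17077 counts in 878 cells and mt-Tp (proline) 6266 in 454, followed by mt-Tm (methionine) with 3148, mt-Ts1 (serine) with 2565 and mt-Tc (cysteine) with 2182. All of these but mt-Tm lie on the minus strand, opposite a long plus-strand precursor, and a tRNA is shorter than the 75 bases of a read or as long, so that these counts cannot be assigned to mature tRNA. mt-Tq, the leading tRNA gene (chrM:3772-3842, minus strand), reads as follows.

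mt-Tq: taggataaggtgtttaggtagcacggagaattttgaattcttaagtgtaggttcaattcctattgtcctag

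The percent of gene counts on mitochondrial genes differed between mural cells and astrocytes by more than between the brain areas (plot by cell type). It is a share of reads that mapped once, and not a share of the cell's RNA. Genes held almost wholly in nuclear copies added little to it, and the number of reads lost to copies was not measured. Over 2030 cells the mitochondrial share, that is the percent of a cell's gene counts that fell on the 37 genes, had a median of 3.64%, a lowest value of 0.564% and a highest of 20.6%. Only 53 cells exceeded 8%. The median over cells was taken in each type and suspension, and means ± SD below are over suspensions with at least 5 cells of the type. AST1 stood at 3.92% ± 0.0723 (SD, n = 4), AST2 at 4.00% ± 0.119 (SD, n = 4), AST3 at 3.34% ± 0.444 (SD, n = 4), AST4 at 4.09% ± 0.0379 (SD, n = 2) and AST5 at 4.57% ± 0.423 (SD, n = 3). Mural cells had 1.96% ± 0.105 (SD, n = 4), endothelial cells 2.91% ± 0.302 (SD, n = 3) and neuronal cells 1.42% ± 0.0255 (SD, n = 2). Microglial cells, with 2 or 3 cells a suspension, lay between 1.27% and 1.86%, and oligodendrocytic cells, with 2 to 4, between 3.19% and 3.65%. Neuronal, microglial and mural cells formed the low end, without overlap with any astrocyte subtype. AST2 overlapped with both AST1 and AST4, whereas both AST4 values lay above those of AST1.

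**Figure D2:**
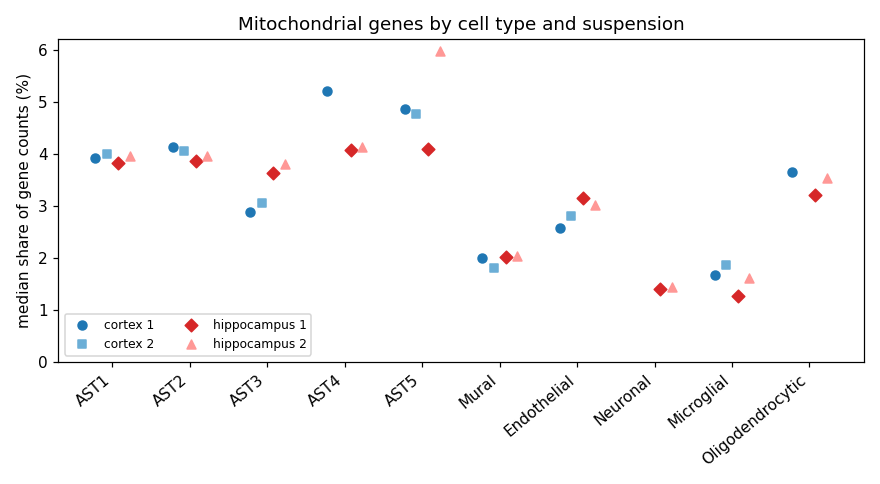
Median percent of gene counts on the 37 mitochondrial genes (vertical) for each cell type (horizontal); each point is 1 suspension, cortex in blue and hippocampus in red, with small types shown down to 2 cells. Mural points lie between 1.80% and 2.03%, below every astrocyte point, and AST3 is lower in both cortical suspensions, 2.87% and 3.05%, than in both hippocampal ones, 3.62% and 3.80%.

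Mural cells carried the clearest difference. Their median share was 1.98%, 1.80%, 2.01% and 2.03% in cortex 1, cortex 2, hippocampus 1 and hippocampus 2, where astrocytes had 3.66%, 3.70%, 3.82% and 3.94%. The groups did not overlap, and the difference within suspensions was -1.82 ± 0.110 percentage points (SD, n = 4). It was lower in 4 of 4 suspensions, with p = 0.125 in an exact two-sided sign-flip permutation test, the smallest p that 4 suspensions allow. Within each of the 11 labels of reverse transcription date mural cells were also lower, by -2.25 to -1.41 percentage points. Against the ERCC spike-in RNA, added in equal amount to each well, mural cells had 0.268 ± 0.0240 mitochondrial counts per spike-in count (SD, n = 4) and astrocytes 0.862 ± 0.0563, whereas all other genes had 13.3 ± 1.04 and 21.3 ± 1.70. Both quantities were lower in mural cells, the mitochondrial one by more. A ratio to spike-in RNA cannot tell smaller cells from less complete lysis.

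Counts were also summed per type and suspension and tested over all genes with edgeR's quasi-likelihood test (Benjamini-Hochberg adjustment, adjusted p under 0.05). CPM values here and below are scaled by total gene counts alone, whereas edgeR's log2 fold changes also use its TMM scaling factors. These were 0.746 to 0.768 for astrocyte sums and 0.975 to 1.25 for mural sums. The printed falls in mural cells are therefore larger than the CPM values alone would give. In mural cells 8 of the 25 mitochondrial genes tested were lower than in astrocytes and none was higher, beside 17.4% of all 17655 genes called in either direction. The median log2 fold change of all genes was -1.29. mt-Co1 fell from 11886, 11672, 10219 and 10669 CPM in astrocytes to 4416, 4633, 4389 and 4172 CPM in mural cells, in the order cortex 1, cortex 2, hippocampus 1 and hippocampus 2, with a log2 fold change of -1.82 ± 0.113 (approximate SE) and adjusted p = 0.00012. mt-Rnr2 fell from between 9604 and 11888 CPM to between 4752 and 5448 (-1.50 ± 0.122, adjusted p = 0.00032). mt-Nd5 gave the largest called change, -2.10 ± 0.256 (adjusted p = 0.0019), and mt-Cytb the smallest, -1.07 ± 0.151 (adjusted p = 0.0042). mt-Rnr1, mt-Nd1, mt-Nd2 and mt-Nd4 lay between -1.48 and -1.46. With totals alone as the scale, which moves the median of all genes by 0.45, 7 remained called as lower. There mt-Co1 stood at -1.34 and mt-Rnr2 at -1.01. mt-Nd2 was the member not called on that scale. Without hippocampus 2 the count of members called was 5, beside 1.67% of all genes. With the suspension as a replicate block 7 members were called beside 2.63% of all genes, and DESeq2 called 13 members as lower beside 33.7%.

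mt-Cytb was higher relative to mt-Co1 in mural cells than in AST1 (plot of ratios between members). Which of the 2 genes has the higher level depends on the scaling to length or to own read positions, and only the change of their ratio between types is described. The ratio of mt-Cytb to mt-Co1 counts, not scaled to length, was 1.53, 1.03, 1.37 and 1.36 in mural cells of cortex 1, cortex 2, hippocampus 1 and hippocampus 2, against 0.809, 0.795, 0.872 and 0.822 in AST1. It was higher in 4 of 4 suspensions by 0.495 ± 0.201 (SD, n = 4), with p = 0.125 in an exact sign-flip test. Against AST2 and AST3 the difference was 0.624 ± 0.219 and 0.547 ± 0.224, again in 4 of 4 suspensions at the same exact p. The ratios of mt-Rnr2 and of mt-Nd1 to mt-Co1 were also higher in mural cells. Against AST1 they rose by 0.201 ± 0.0350 and 0.0720 ± 0.0681 (SD, n = 4). Against each of AST1, AST2 and AST3 this held in 4 of 4 suspensions at the same exact p. The change against mt-Co1 was therefore not particular to mt-Cytb. AST4 had ratios of 1.04 and 1.07, above the range of 0.623 to 0.872 seen in AST1, AST2, AST3 and AST5. Endothelial cells had 1.06, 0.890 and 0.832 in cortex 1, hippocampus 1 and hippocampus 2, the first 2 of them above this range, and exceeded AST1 in 3 of 3 suspensions by 0.0931 ± 0.137 (SD, n = 3; exact p = 0.25). Neuronal cells had 1.27 in hippocampus 1 and 0.821 in hippocampus 2. In all, 6 pairs of types were compared for each of 5 ratios, and since the smallest raw p was 0.125, none passed 0.05 before or after adjustment.

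**Figure D3:**
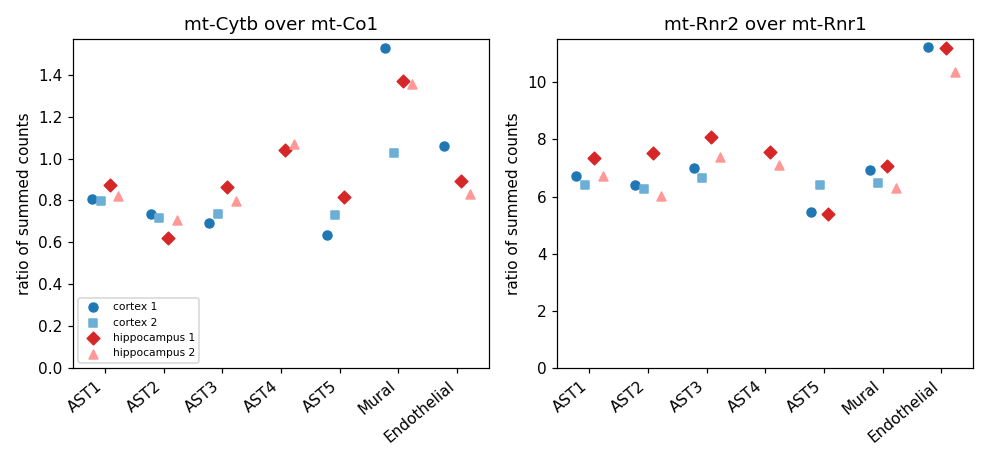
Ratio of summed counts of mt-Cytb to mt-Co1 (left) and of mt-Rnr2 to mt-Rnr1 (right). Each point is 1 suspension with at least 5 cells of the type. Astrocyte subtypes, mural cells and endothelial cells are drawn. Mural cells lie between 1.03 and 1.53 on the left. On the right, endothelial cells lie between 10.4 and 11.2, above the other types drawn, which stay between 5.40 and 8.09.

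Endothelial cells, which line the vessels, held an intermediate share and another balance of the 2 ribosomal RNAs. Their median share was 2.57% in cortex 1, 3.15% in hippocampus 1 and 3.01% in hippocampus 2, lower than astrocytes in 3 of 3 suspensions by -0.897 ± 0.207 percentage points (SD, n = 3; exact p = 0.25, the smallest possible). edgeR called 8 of 25 mitochondrial genes as lower and none as higher, beside 17.4% of all genes, with a median of -2.79 over all genes. The called genes were the same 8 as in mural cells, from mt-Nd5 at -2.20 ± 0.288 (adjusted p = 0.0031) to mt-Rnr2 at -1.05 ± 0.134 (adjusted p = 0.0028). Scaling by totals alone moved the median of all genes by 0.80 and left 6 called as lower, without mt-Rnr2 and mt-Nd2. On that scale mt-Rnr2 stood at -0.21. Leaving out cortex 1, hippocampus 1 or hippocampus 2 left 2, 5 and 5 called, beside 1.51%, 2.11% and 2.48% of all genes. With the suspension as a replicate block 8 members were called beside 2.20% of all genes, and DESeq2 called 15 as lower beside 41.3%. mt-Rnr2 stood at 7519, 9630 and 10945 CPM in cortex 1, hippocampus 1 and hippocampus 2, partly within the astrocyte range, while mt-Rnr1 stood at 669, 860 and 1057 CPM against 1431 to 1742 in astrocytes. The ratio of mt-Rnr2 to mt-Rnr1 was therefore 11.2, 11.2 and 10.4, against 6.74, 7.36 and 6.71 in AST1 of the same suspensions. It was higher by 3.99 ± 0.448 (SD, n = 3; exact p = 0.25, the smallest possible). Summed over all cells of a type, this ratio was 10.9 in the 11 microglial cells and 10.6 in endothelial cells, so it was not particular to endothelial cells. In the endothelial sums mural markers were present at a median of 396 CPM against 2314 CPM for endothelial markers, and their part in these values was not tested.

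AST3 cells differed between the brain areas in mitochondrial share without overlap. They had a median share of 2.87% and 3.05% in cortex 1 and 2, and of 3.62% and 3.80% in hippocampus 1 and 2. The areas did not overlap and differed by 0.748 percentage points (exact permutation p = 0.333, the smallest that 2 against 2 suspensions allow). AST3 was below the mean of the other subtypes in 4 of 4 suspensions, by -1.43 and -1.22 percentage points in cortex and by -0.341 and -0.205 in hippocampus (mean -0.799 ± 0.615, SD, n = 4; exact p = 0.125, the smallest possible). Per spike-in count, AST3 cells had 0.889 ± 0.0385 mitochondrial counts in cortex and 0.819 ± 0.117 in hippocampus (SD, n = 2 each), with overlapping suspensions. For all other genes this ratio reached 28.7 and 29.7 in cortex, against 20.4 and 22.2 in hippocampus, without overlap. AST2 also had more counts on other genes per spike-in count in cortex, 20.3 ± 0.303 against 16.5 ± 1.06 (SD, n = 2 each), while its share was lower in hippocampus. The part of these counts in the AST3 difference was not tested. Cortical AST3 cells also had more genes detected, a median of 2628 and 2584 against 2051 and 2112. Within the 10 date labels that held both areas, the AST3 share was higher in hippocampus in 8, from -0.600 to 1.61 percentage points.

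**Figure D4:**
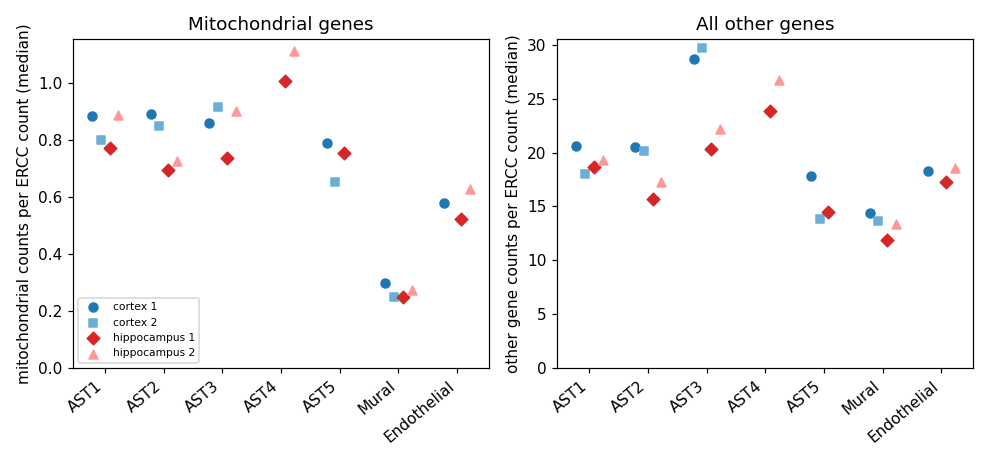
Median counts on the 37 mitochondrial genes (left) and on all other genes (right) per ERCC spike-in count. Each point is 1 suspension with at least 5 cells of the type. Astrocyte subtypes, mural cells and endothelial cells are drawn. On the right, AST3 reaches 28.7 and 29.7 in cortex against 20.4 and 22.2 in hippocampus, and on the left its areas overlap. Mural cells are the lowest of the types drawn on the left. Neuronal cells, which overlap with mural cells in that ratio, are not drawn.

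Single members showed the same split in AST3. mt-Nd1 had 2924 and 2758 CPM in cortex against 4628 and 4675 CPM in hippocampus, and mt-Nd5 1111 and 1046 against 1655 and 1543. mt-Nd2 had at most 339.003 CPM in cortex and at least 499 in hippocampus, and mt-Rnr2 had 8138 and 8138 against 10086 and 10458. mt-Co1, at 9644 and 9458 against 9515 and 9788 CPM, overlapped between the areas. edgeR called 0 of 26 mitochondrial genes in AST3, where 0% of all 14960 genes were called, while 7 members had an unadjusted p under 0.05. DESeq2 on the same sums called 7 members, all higher in hippocampus, beside 13.8% of all genes: mt-Nd1 (log2 fold change 0.80 ± 0.047, adjusted p = 3.1e-60), mt-Nd2, mt-Nd5, mt-Nd4, mt-Rnr2, mt-Cytb and the tRNA gene mt-Tv. mt-Tv had only 82 counts, in 20 of 452 AST3 cells. The 2 tools differ in this design of 2 against 2 sums, and the result rests on the tool.

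Taken over all astrocytes, the difference between areas was small. The share was 3.68% ± 0.0347 in cortex and 3.88% ± 0.0801 in hippocampus (SD, n = 2 each), higher in hippocampus by 0.199 percentage points (exact permutation p = 0.333, the smallest possible). It was 0.0622 percentage points with protein genes alone and 0.0751 over all cells (exact permutation p = 0.667). Within the 10 date labels that held both areas it was higher in hippocampus in 6, between -0.725 and 0.934 percentage points, so that it did not hold within date labels. edgeR called 0 of 27 mitochondrial genes and 0% of all 19160 genes, with 7 members at an unadjusted p under 0.05. DESeq2 called 5 members beside 10.3% of all genes. Of these mt-Nd2 (0.54 ± 0.061, adjusted p = 2.9e-16), mt-Nd1 (0.45 ± 0.051), mt-Nd5 and mt-Rnr2 were higher in hippocampus and mt-Co1 was lower (-0.14 ± 0.045, adjusted p = 0.019). mt-Nd2 had 424 and 415 CPM in cortex and 595 and 595 in hippocampus, and mt-Co1 11886 and 11672 against 10219 and 10669. The subtypes are unequally spread over the areas, since AST2 held 240 of 461 astrocytes of cortex 1 and was the largest subtype of cortex 2 as well, but held 10 of 393 and 22 of 428 hippocampal ones. AST1 alone, present in both areas, had shares of 3.91% and 3.99% (cortex) against 3.82% and 3.95% (hippocampus), which overlap. There edgeR called 0 of 27 members (1 at an unadjusted p under 0.05) and 0% of all genes. DESeq2 called 3 members in AST1 beside 17.5% of all genes. Of these mt-Nd1 was higher, and mt-Co1 and the tRNA gene mt-Tc were lower in hippocampus. mt-Tc had 410 counts, in 42 of 657 AST1 cells.

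Among the other subtypes, AST1 and AST2 were close to the mean of the rest in share, at -0.0266 ± 0.0507 (exact p = 0.375) and 0.0827 ± 0.131 percentage points (exact p = 0.5; SD, n = 4 each). These values weight the other subtypes equally. With the others weighted by cell number AST2 stood 0.415 percentage points higher (exact p = 0.125, the smallest possible) and AST1 0.136, and with at least 10 cells AST2 stood 0.221 higher. With reads outside exons in the total the AST2 difference turned to -0.242 percentage points. AST4, with 41 and 48 of its 91 cells in hippocampus 1 and 2, was higher by 0.218 and 0.216 percentage points in the 2 hippocampal suspensions (exact p = 0.5, the smallest possible). edgeR called 0 of 27 members in AST1, AST2, AST3 and AST4 against the other subtypes, where it called 0.0384%, 0.0548%, 0% and 0.636% of all 18233 genes. That fit weights the other subtypes by cell number, and with equal weights it called 5.52%, 5.25%, 4.95% and 2.82% of all genes and 1, 0, 0 and 0 members. At an unadjusted p under 0.05 stood 3, 0, 3 and 1 members. DESeq2 called 0, 1, 0 and 3 members beside 5.20%, 4.83%, 3.99% and 11.5% of all genes. The member nearest the threshold was mt-Nd2 in AST4, with 340 and 394 CPM in the hippocampal suspensions against 650 and 654 in AST1 there (log2 fold change -0.99 ± 0.213, adjusted p = 0.055).

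AST5, the smallest subtype with 26 cells, had the highest mean share and the direction of its single genes depended on the scaling. Its share was 4.86%, 4.77% and 4.09% in cortex 1, cortex 2 and hippocampus 1, higher than the other subtypes in 3 of 3 suspensions by 0.845 ± 0.525 percentage points (SD, n = 3; exact p = 0.25, the smallest possible). With protein genes alone the difference was 0.437 percentage points and with summed counts 0.769, both at exact p = 0.5. In hippocampus 1 the AST5 levels of mt-Co1, mt-Cytb and mt-Nd1 were 9599, 7840 and 3369 CPM, below the 10455, 9116 and 5027 CPM of AST1. mt-Rnr1 stood at 2408, 2560 and 2111 CPM against 1165 to 1898 in AST1 to AST4. With TMM factors, which were 1.34 to 1.63 for the AST5 sums and 0.843 to 1.12 for the others, edgeR called 5 of 27 members as lower beside 17% of all genes: mt-Nd1, mt-Nd2, mt-Cytb, mt-Co1 and mt-Tt. With totals alone as the scale it called 2, mt-Rnr1 (0.61 ± 0.091, adjusted p = 0.00034) and mt-Rnr2 (0.39 ± 0.099, adjusted p = 0.015), both as higher, and mt-Co1 and mt-Cytb changed sign. mt-Tt had 0 counts in the AST5 sums, so its fold change is not interpretable. The count of members called as lower was 1 without cortex 2, 1 without hippocampus 1 and 0 without hippocampus 2, beside 8.53%, 12.4% and 7.29% of all genes. DESeq2 called 2 as lower beside 43.7% of all genes. AST5 cells also stood apart in measures outside these genes. The list of 6 oligodendrocytic markers had a median of 152.99 CPM and a sum of 1408 CPM in AST5, with 2 markers at 0, against medians of 10.4 to 31.8 and sums of 288.6 to 813 in AST1 to AST4. Reads outside exons made up a median of 1.48% to 1.72% of their assigned reads across the 4 suspensions, whereas AST1 to AST4 had medians of 10.7% to 13.96% over their cells. They had 1675 genes detected at the median against 1992 to 2562. The part of these differences in the share was not tested.

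Plate medians within a suspension spanned a wider range than the difference between the areas (plot by plate). These measures are unlike, since a range over 8 plates also grows with sampling of cells, here 13 to 80 astrocytes a plate. Each suspension filled 8 plates, and the plate medians of astrocytes ran from 3.00% to 4.89% in cortex 1, from 3.13% to 4.73% in cortex 2, from 3.29% to 4.49% in hippocampus 1 and from 3.60% to 4.41% in hippocampus 2. In 3 suspensions the highest plate was the single one that waited 1 day before preamplification PCR. Its median was 4.89% against 3.52% over the 7 other plates of cortex 1, 4.73% against 3.62% in cortex 2 and 4.41% against 3.88% in hippocampus 2. All 3 plates, and no others, carry the reverse transcription date label 12.10.2016-2, so that the delay cannot be told apart from that label. The 3 plates labelled 12.10.2016, without delay, had medians of 3.77%, 3.31% and 3.81% in cortex 1, cortex 2 and hippocampus 2. Mitochondrial counts per spike-in count were 1.06, 1.16 and 1.04 on the delayed plates of cortex 1, cortex 2 and hippocampus 2, against 0.860, 0.849 and 0.889 on the undelayed plates of these suspensions, while counts on other genes were 20.2, 22.7 and 22.1 against 23.6, 21.9 and 20.5. Without the delayed plates the areas differed by 0.282 percentage points. AST3 was then -0.792 percentage points from the other subtypes, AST4 0.131 in place of 0.217 and AST2 0.0285 in place of 0.0827.

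**Figure D5:**
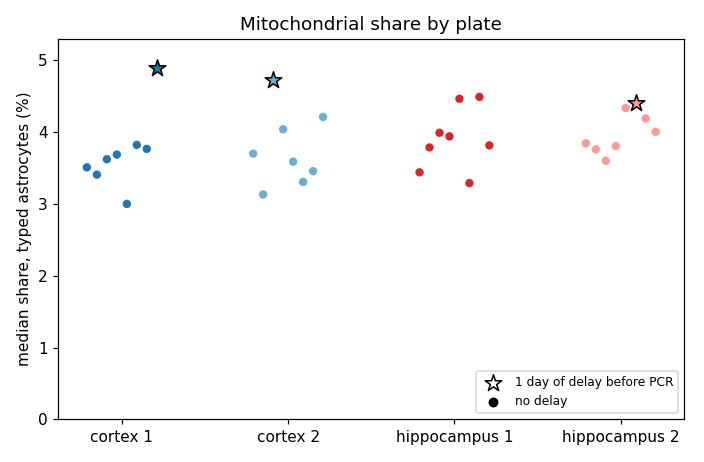
Median mitochondrial share of astrocytes (percent of gene counts, vertical) on each plate of the 4 suspensions (horizontal); stars mark the plates with 1 day of delay before PCR. The stars at 4.89%, 4.73% and 4.41% are the highest plates of their suspensions, and hippocampus 1, which has no star, spans 3.29% to 4.49%.

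Nuclear genes that serve the same organelle were followed in 3 lists. The first held 35 genes for transcription and processing of mitochondrial RNA, the second 38 nuclear subunits of the respiratory complexes and the third 11 regulators of mitochondrial biogenesis. Between the areas, and for AST1, AST2 and AST3 against the other subtypes, edgeR called none of them. In these comparisons it called 0% to 0.0548% of all genes, so that the absence of calls says nothing particular about the lists. Counts below stand beside the 17.4% of all genes called in mural and in endothelial cells. In mural cells 8 of 38 nuclear subunits were lower and none was higher, with a list median of -0.87 beside -1.29 for all genes, and in endothelial cells 17 of 38 were lower, with -1.56 beside -2.79. Cox5a, a complex IV subunit, stood at 46.3, 16.8, 31.9 and 24.3 CPM in mural cells against 122.2, 117.7, 93.3 and 79.6 in astrocytes (log2 fold change -2.21 ± 0.565, adjusted p = 0.028). Uqcrfs1, the Rieske iron-sulfur protein of complex III, gave -1.81 ± 0.514 in mural cells (adjusted p = 0.042) and -2.67 ± 0.624 in endothelial cells (adjusted p = 0.041). Cox5b of complex IV followed in mural cells at -1.45 ± 0.398, and Atp5o of complex V and Ndufb10 of complex I in endothelial cells at -2.14 ± 0.446 and -1.95 ± 0.453. Among the 33 processing genes tested, 1 was lower in mural and 3 in endothelial cells, smaller shares than the 17.4% of all genes, with list medians of -0.73 beside -1.29 and -1.69 beside -2.79. These were Mterf1b in both, a termination factor with a near-identical neighbour that makes its counts uncertain. In endothelial cells they also included Tefm, an elongation factor with 0 counts in 30 cells, and Mgme1. Mgme1 is a nuclease that acts on mitochondrial DNA, so not every gene of this list acts on its RNA. Tefm was seen in few astrocytes as well, with counts in 94 of 1781.

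Ppargc1a, which encodes the coactivator PGC-1alpha, a regulator of mitochondrial biogenesis, was nearly absent from the vascular cells. It stood at 157.5, 160.7, 166.7 and 176.1 CPM in astrocytes of cortex 1, cortex 2, hippocampus 1 and hippocampus 2. Of all mural cells 1 held 1 count, and in endothelial cells 1 of 30 cells held 1 count (adjusted p = 0.00083 and 0.0025). It was the 1 gene of the 11 called in each of these 2 comparisons. In AST4, where 0.636% of all genes were called, it was the 1 of 11 called and was lower as well, at 51.6 and 57.7 CPM in hippocampus 1 and 2 against 154.7 and 154.1 in AST1 there (log2 fold change -2.24 ± 0.371, adjusted p = 0.0081). Atp5b, the catalytic beta subunit of complex V, was the 1 of 38 nuclear subunits called in AST4 (-0.95 ± 0.169, adjusted p = 0.016), with 1038 and 1132 CPM against 1634 and 1420. The mitochondrial share of AST4 in the same suspensions was 4.07% and 4.12%, against 3.82% and 3.95% in AST1. In AST5, 11 of 33 processing genes were lower, beside 17% of all genes called. The largest fitted log2 fold changes were those of Pnpt1, Polrmt and Fastkd2, from -16.2 to -15.4. Such sizes come from counts at or near 0 and are not interpretable. The list median was -1.62 and that of all genes -4.55, and the list was not computed with another scaling. Fastkd2 had 0 counts in the 26 AST5 cells, as had Polrmt, the mitochondrial RNA polymerase. Polrmt had counts in 53 of 657 AST1 cells, so its absence from so few AST5 cells says little. Cox8a of complex IV was higher in AST5 (0.56 ± 0.156, adjusted p = 0.024), the 1 nuclear subunit called there, and Nrf1, a transcription factor of the biogenesis list, had 0 counts there and counts in 67 of 657 AST1 cells.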

How the data were processed

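Per the labels and the study's methods, the authors mapped paired 75-base reads with STAR 2.5.2b to GRCm38.p5 with ERCC sequences, kept reads that mapped once, and deposited whole-number counts per gene and cell made with HTSeq; strand and overlap settings of the counting are not given in the sources used here. Members and gene lists were chosen with earlier results of these data known. Shares were computed per cell from the deposited counts as the percent of gene counts, with ERCC, unassigned and ambiguous reads left out of the total. Cell types came from the study's cell list; 1 labelled cell was not analysed here, and 33 cells outside the list as held here and 15 listed without a type entered no comparison between types. A table of the whole series was used as a check of 4 columns only, whose totals equalled those of the cells' own files; its other 2027 columns were not used.

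Counts were summed per type and suspension, with at least 5 cells, and tested with edgeR 4.0.16 (TMM, filterByExpr, robust quasi-likelihood fit, Benjamini-Hochberg adjustment over all genes tested at 0.05) in R 4.3.3, with region as a covariate between types and the other subtypes weighted by cell number. SEs are approximate, from the log2 fold change and its F value. DESeq2 1.42.0, RLE factors, totals without the mitochondrial genes, totals alone, no filter, a replicate block and leaving out each suspension were alternatives. The code was tested on simulated data. Shares were compared with exact permutation or sign-flip tests over suspensions, two-sided. Between areas, edgeR p-values measure the spread between suspensions. Between types, they measure the spread between sums of a type and suspension, and the main fit does not pair sums of the same suspension. An exact p called the smallest possible is set by the number of suspensions alone. Named genes were every protein and rRNA member, the 5 leading tRNA genes, the 5 nuclear copies with most counts and, per list and comparison, up to 3 called genes with the largest change. Stretches of 75 bases and the sequences shown were read from GENCODE transcripts of GRCm38, a later release than the one the authors used. Depth per cell was 600758 to 3238215 gene counts; without molecular identifiers, limits from counts cover counting error only.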

Additional observations from a re-analysis of the deposited data

Results flagged for a closer look

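The effect of brain area on the mitochondrial share went in opposite directions in 2 pairs of types, counting only types whose areas did not overlap. AST1 had a hippocampus minus cortex difference of -0.0649 percentage points, but its areas overlapped. AST3 was higher in both hippocampal suspensions and AST2 lower, and the effects differed by 0.936 percentage points. Mural cells were higher in hippocampus and AST2 lower, by 0.314 percentage points. In an exact permutation test over suspensions both differences gave p = 0.333, the smallest possible, and AST2 in hippocampus rests on 10 and 22 cells. No suspension stood out by Dixon's test in the differences between types that had 4 suspensions.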

How the results depend on the processing

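Mural, endothelial, AST3, AST4 and AST5 shares kept their direction under every alternative run. The difference between areas over all astrocytes reversed within the date labels 12.10.2016-2 (-0.364 percentage points), 13.10.2016 (-0.311), 17.10.2016-2 (-0.252) and 6.10.2016 (-0.725). AST1 minus the other subtypes turned to 0.0913 with summed counts, 0.102 with at least 10 cells, 0.136 with the others weighted by cell number and 0.0129 without the delayed plates, and AST2 to -0.242 with reads outside exons in the total. DESeq2 called 5, 3 and 7 members between areas (all astrocytes, AST1, AST3), 1 in AST2, 3 in AST4, 2 in AST5, 15 in endothelial and 13 in mural cells, beside 10.3%, 17.5%, 13.8%, 4.83%, 11.5%, 43.7%, 41.3% and 33.7% of all genes. In AST5 RLE factors and equal weights left 2 called as lower, and the replicate block left 3. Totals alone called 2 as higher there, with mt-Co1 at 0.22 and mt-Cytb at 0.12. Shares of all genes called in these fits lay between 11.2% and 17.1%. At least 10 cells left AST5 with 1 suspension, cortex 2, and its calls are not given. Equal weights called 1 in AST1 beside 5.52% of all genes, and at least 10 cells 1 in AST4 beside 1.76%. Leaving out 1 suspension gave 0 to 5 calls in AST5, 2 to 8 in endothelial and 5 to 7 in mural cells, beside 7.29% to 12.4%, 1.51% to 4.43% and 1.63% to 2.47% of all genes; the lowest were without hippocampus 2, cortex 1 and hippocampus 2. The cause was not tested. Cortex and hippocampus suspensions share only a number (correlation of deviations -0.0149 for number 1), and with the replicate block 0 members were called between areas. Totals alone and the plates left out were chosen after seeing the data. Depth as a limit on single members was not tested.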

Other observations

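The 15 cells that the study's list leaves without a type had a median mitochondrial share of 7.35%, from 3.16% to 20.2%, against 3.78% in typed astrocytes. They had 1012 to 1219 genes detected, and in 13 of them reads outside exons made up 0.824% to 2.14% of assigned reads. In this they resembled AST5 cells, with 1.59%, more than AST1 cells, with 12.8%. The study discarded cells under its minimal total expression threshold before typing, and the cells without a type may be among them. Of the 53 cells above 8% mitochondrial share 5 were untyped and 47 were astrocytes. The 33 cells outside the list as held here had a median of 3.44%.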
